A study of Homo sapiens with 9 samples.

Results

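Cells detached from their matrix for 48 hours were compared with cells left attached, using 6 of the 9 RNA-seq libraries of the series. MDA-MB-453 is a human breast cancer line, labelled as triple-negative and wild type, and it was grown in DMEM with 10% fetal bovine serum. The 3 attached libraries came from regular plates and the 3 suspension libraries from plates coated with poly-HEMA, a polymer to which cells cannot adhere. Both groups received the vehicle DMSO and were collected after 48 hours, in biological triplicate according to the design text. A further 3 suspension libraries, treated for the same time with 10 µmol/L AT-0174 (AT0174 in the labels), an inhibitor of TDO2 and IDO1, entered the fit and are given only beside the vehicle values. All libraries came from 1 cell line, and nothing in the labels ties a replicate number to a shared culture or day. The sample labels name a SMARTER kit for library preparation, whereas the methods of the study name the Universal Plus mRNA kit.

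Epithelial cells normally sense the matrix through integrins, which couple laminins and collagens outside the cell to focal adhesion proteins and actin stress fibers inside it. Tension along this route keeps the coactivators YAP and TAZ in the nucleus, and loss of attachment can trigger a form of programmed cell death called anoikis, which carcinoma cells often resist. Growth factor receptors and integrins also feed the MAPK cascade, whose fast transcriptional output is a group of immediate-early genes such as *FOS* and *EGR1*. Most respiratory chain subunits are encoded in the nucleus, and the remaining ones on the small circular genome inside mitochondria, which has its own polymerase.

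Each library held between 36649997 and 39931024 estimated counts in attached cells and between 38426208 and 43366137 in suspension. Levels are given as CPM, counts scaled to a fixed library total, after scaling of the library sizes by edgeR's TMM method, and each set of values follows replicates 1, 2 and 3. Differences are log2 fold changes of suspension minus attached cells with standard errors (SE), and p-values come from edgeR's quasi-likelihood test, adjusted by the Benjamini-Hochberg method over 15528 genes. The genes expected of this line were present, with the receptor tyrosine kinase *ERBB2* between 1029 and 1082 CPM in the 6 libraries. *KRT8*, a luminal keratin, lay between 875 and 898 CPM, and *EPCAM*, an epithelial surface marker, between 297 and 324 CPM. Of 21 markers of fibroblasts, endothelial, immune and basal epithelial cells, 17 had fewer than 10 counts in every vehicle library and 4 had none. Their summed level was 139 to 157 CPM attached and 120 to 121 CPM in suspension, and nearly all of it was the collagen gene *COL1A1*. Attached replicate 3 lay farthest from the other libraries of its group on the first principal component. As RNA was taken from whole cultures, a smaller share of cells expressing a gene and less of its RNA per cell cannot be told apart.

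At an adjusted p under 0.05, 3297 of 15528 genes (21.2%) differed, 1620 higher (10.4%) and 1677 lower (10.8%) in suspension. Percentages beside list counts below are of the tested genes of that list, to be read against these shares of all genes. Most differences were small, with a median absolute log2 difference of 0.23 among changed genes. Changes of at least 2-fold were mostly falls, seen in 127 genes (0.818%) against 25 rises (0.161%). The groups did not overlap in 5920 genes (38.1%). Among them were 3252 of the 3297 changed genes, so a lack of overlap adds little to a call. The median over all genes tested was -0.00025 on the log2 scale. Scaling by library totals alone, without TMM, shifted that median to 0.0472 and turned the split between directions, with 69.2% of 4003 changed genes higher in place of 49.1%. The count was 1935 without attached replicate 3 and 1951 without suspension replicate 2. It was 1401 when counts were rebuilt from TPM, a unit that divides out transcript length.

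**Figure D1:**
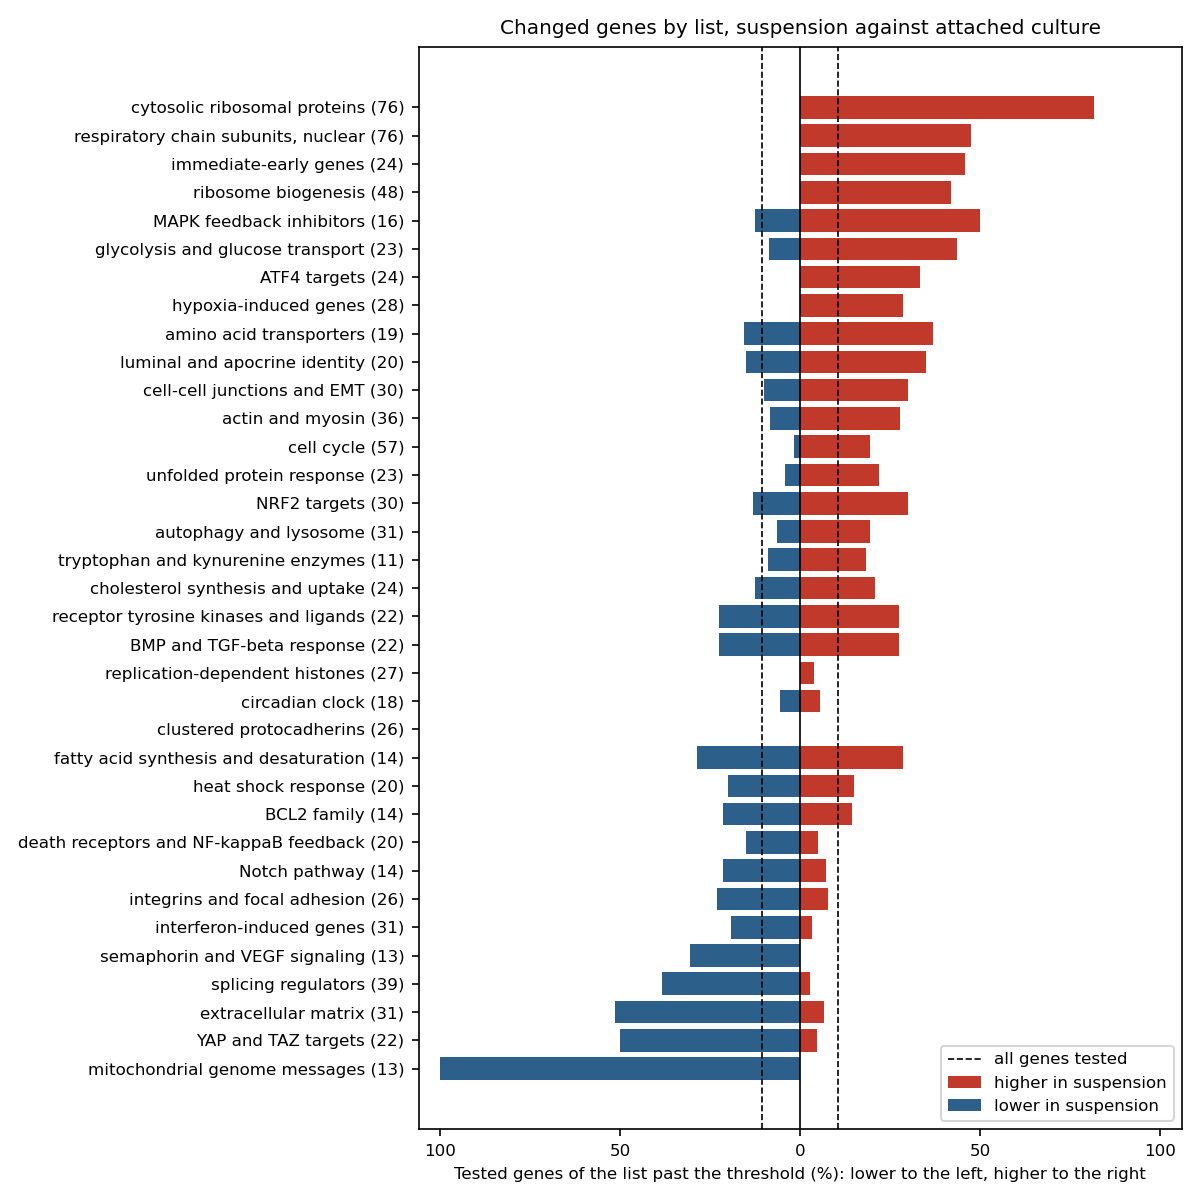
For each gene list with at least 10 tested genes (number in parentheses), the bars show the percentage of its tested genes that were lower (left) or higher (right) in suspension at an adjusted p under 0.05, with dashed lines at 10.8% lower and 10.4% higher for all genes tested. The messages of the mitochondrial genome stand at the lower end and the cytosolic ribosomal proteins at the upper end.

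The immediate-early genes held *FOS*, which had the largest rise among called genes whose groups did not overlap and whose mean was 50 or more normalized counts. Of 24 tested, 11 rose and 0 fell, against 10.4% of all genes rising, and the median log2 difference was 0.10. *FOS*, a subunit of the AP-1 transcription factor, had 0.706, 0.941 and 0.592 CPM in attached cells and 37.5, 45.4 and 20.9 CPM in suspension. It was nearly silent in each attached library, and the lowest suspension library stood far above the highest attached one. The log2 difference was 5.54 (SE 0.388, adjusted p = 2.89e-06), or 46.4-fold. *FOSB*, another AP-1 subunit of the same family, rose from 2.69, 2.57 and 2.09 CPM to 7.31, 8.3 and 4.71 CPM (log2 1.47, SE 0.246, adjusted p = 0.00197). *DUSP1*, a phosphatase that switches MAP kinases off, had 5.28, 5.26 and 5.28 CPM attached and 15.6, 17 and 10.7 CPM in suspension (log2 1.45, SE 0.159, adjusted p = 0.000121). The zinc finger factor *EGR1* went from 34.6, 42.3 and 41.8 CPM to 89.6, 82.2 and 59.1 CPM (log2 0.96, SE 0.15, adjusted p = 0.00132). Suspension replicate 3 was the lowest of its group for all 4 genes. It was still above every attached library, which the rule that named these genes required.

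The stretch of 250 bases upstream of the start of each of these 4 genes is shown because they had the largest rises among regulators of this pathway. The sequences are from RefSeq on GRCh38.p14, read 5′ to 3′ on the gene's strand. They lie at chr14:75278578-75278827 (plus strand) for *FOS*, chr19:45467746-45467995 (plus) for *FOSB*, chr5:172771196-172771445 (minus) for *DUSP1* and chr5:138465229-138465478 (plus) for *EGR1*. Capitals mark TGACGT, the core of the cAMP response element, on either strand, and the CArG box, the element bound by serum response factor.
FOS: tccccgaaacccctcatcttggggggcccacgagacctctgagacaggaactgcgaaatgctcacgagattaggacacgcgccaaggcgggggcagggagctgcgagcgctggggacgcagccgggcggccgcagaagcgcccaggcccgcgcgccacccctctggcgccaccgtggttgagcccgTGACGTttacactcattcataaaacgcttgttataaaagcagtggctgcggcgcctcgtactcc
FOSB: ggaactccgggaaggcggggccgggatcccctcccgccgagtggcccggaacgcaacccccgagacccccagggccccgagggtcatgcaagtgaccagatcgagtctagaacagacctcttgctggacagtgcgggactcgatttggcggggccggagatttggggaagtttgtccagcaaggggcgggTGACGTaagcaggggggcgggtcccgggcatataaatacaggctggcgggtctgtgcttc
DUSP1: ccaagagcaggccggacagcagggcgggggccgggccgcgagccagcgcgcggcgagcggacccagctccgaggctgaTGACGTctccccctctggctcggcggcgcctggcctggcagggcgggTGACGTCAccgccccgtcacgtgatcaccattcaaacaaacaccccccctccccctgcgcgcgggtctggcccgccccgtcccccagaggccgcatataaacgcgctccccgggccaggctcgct
EGR1: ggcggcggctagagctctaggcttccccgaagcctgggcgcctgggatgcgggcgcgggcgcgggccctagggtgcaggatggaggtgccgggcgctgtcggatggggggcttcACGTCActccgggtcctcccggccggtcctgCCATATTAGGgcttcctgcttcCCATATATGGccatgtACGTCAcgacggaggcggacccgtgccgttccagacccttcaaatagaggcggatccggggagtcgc
The search found 1 match of TGACGT in *FOS*, 1 in *FOSB*, 3 in *DUSP1* and 2 in *EGR1*, where the palindrome in *DUSP1* counts once on each strand. Within these 250 bases a CArG box was found in *EGR1* alone of the 4, in 2 copies that do not overlap the other motif. Sequence farther upstream was not searched, so a box lying there would be missed in any of the 4 genes. TGACGT stood in 7.42% of 27305 promoters of this length and in 10.4% of the 10722 promoters of tested genes. Of the 19 tested immediate-early genes with a promoter entry, 6 held it, 3 of 10 that rose (*FOS*, *FOSB* and *EGR1*) and 3 of 9 that were not called (*FOSL2*, *JUND* and *NR4A3*). These sets of 10 and 9 genes are too small to compare. Over the 19 genes together the share was 31.6%, against 10.4% of promoters of tested genes, and a role of the motif was not tested. CArG boxes stood in 1.14% of all promoters.

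The other rises among immediate-early genes were smaller. *KLF2*, a zinc finger factor, rose from 44.2, 52.6 and 44 CPM to 71.7, 75.8 and 69.9 CPM (log2 0.63, SE 0.0601, adjusted p = 4.11e-05). *MYC*, a growth-promoting transcription factor, rose from 60, 58.4 and 53.5 CPM to 78.4, 83.4 and 77.9 CPM (log2 0.48, SE 0.0463, adjusted p = 4.38e-05). In both genes the groups were apart by more than the spread within them. By role, 4 of 7 AP-1 subunits tested rose, 3 of 5 zinc finger factors and 1 of 3 nuclear receptors. The receptor was *NR4A1*, named after its values were seen (log2 0.52, adjusted p = 0.0103). Its call was lost without retained-intron transcripts (log2 0.07, adjusted p = 0.56), and its transcripts are described below with the introns.

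Feedback inhibitors of the MAPK cascade moved with these genes. Of 16 tested, 8 rose (50%) and 2 fell (12.5%), with a median of 0.17. Among the 9 phosphatases, 6 rose and 0 fell. *DUSP6*, which dephosphorylates ERK, went from 131, 135 and 134 CPM to 174, 184 and 176 CPM (log2 0.42, SE 0.0355, adjusted p = 1.54e-05). *DUSP2* rose by 0.56 (SE 0.074, adjusted p = 0.000493). The inhibitor of EGFR-family receptors *ERRFI1* fell by 0.15 (adjusted p = 0.0112) and the Sprouty-related *SPRED3* fell by 0.93 (adjusted p = 0.0136), but both calls were lost with counts rebuilt from TPM. The count of rises was 5 without attached replicate 3, and also 5 without suspension replicate 2 or replicate 3. In suspension with AT-0174, which is compared here with the same attached libraries, *FOS* stood at 33.4, 42.9 and 26.3 CPM, *DUSP1* at 12.4, 13.3 and 9.91 CPM and *DUSP6* at 203, 214 and 199 CPM, all above the attached values.

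**Figure D2:**
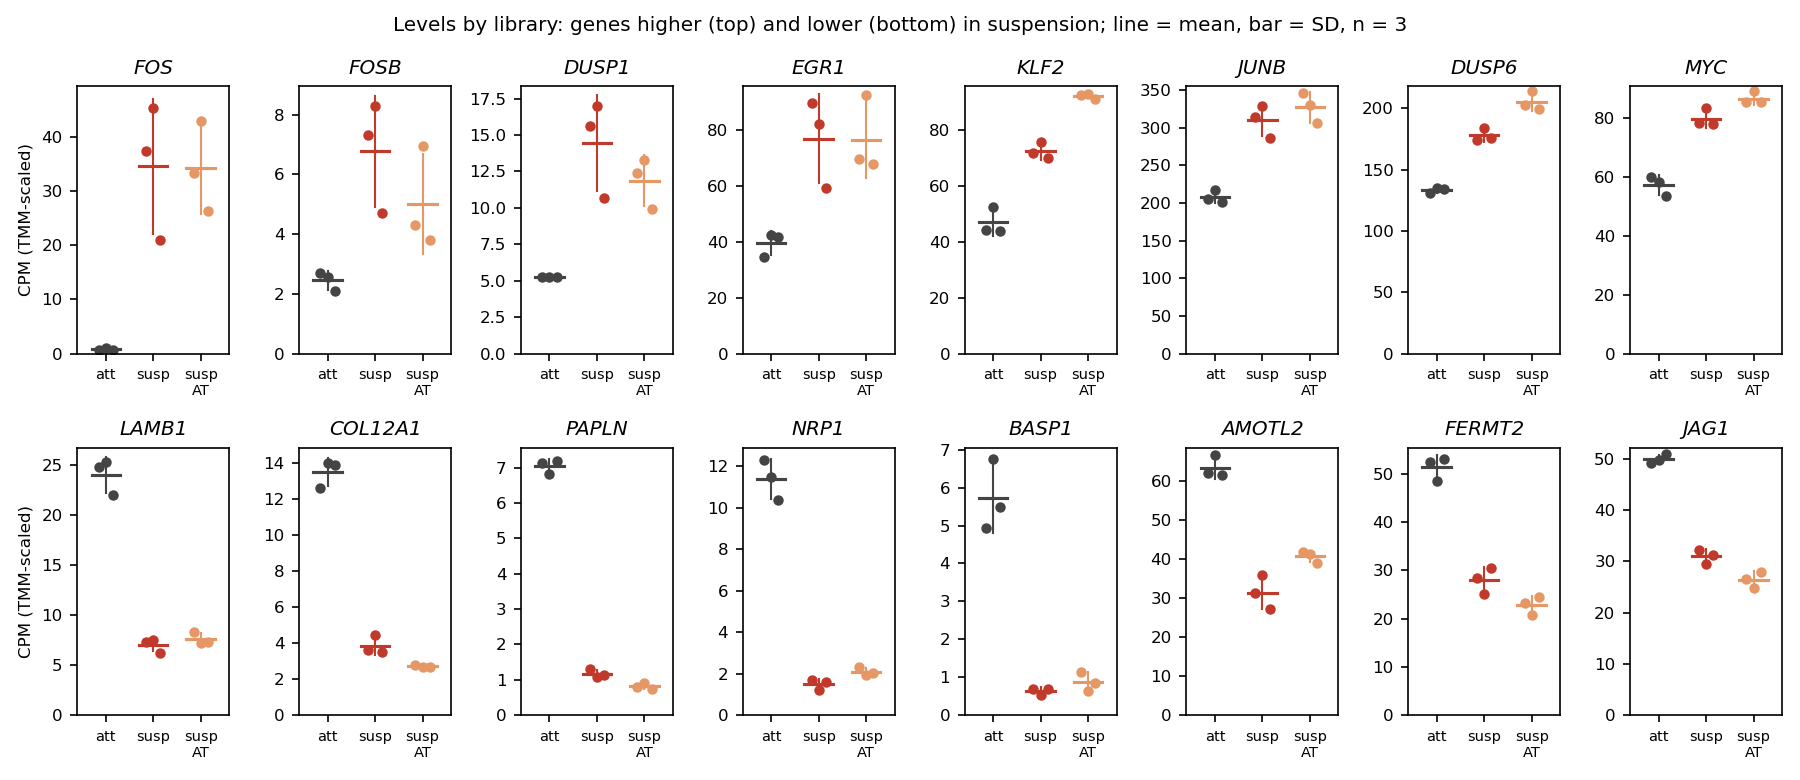
Levels in CPM on a linear axis for 16 genes, with 1 point per library, a line at the mean and a bar for the SD of 3 libraries, for attached cells, suspension with vehicle and suspension with AT-0174. The upper 8 genes were higher in each suspension library with vehicle than in any attached library, as in *FOS* with 20.9 to 45.4 against 0.592 to 0.941 CPM, and the lower 8 were lower.

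Genes of the extracellular matrix fell. Of 31 tested, 16 fell and 2 rose, beside 10.8% of all genes falling, and the median log2 difference was -0.28. *LAMB1*, a chain of basement membrane laminins, had 24.8, 25.3 and 22 CPM attached and 7.36, 7.48 and 6.26 CPM in suspension. The groups were far apart, and the difference was 3.42-fold (log2 -1.77, SE 0.0845, adjusted p = 9.81e-08). *COL12A1*, a fibril-associated collagen, fell from 12.6, 14 and 13.9 CPM to 3.59, 4.42 and 3.48 CPM (log2 -1.81, SE 0.0996, adjusted p = 3.16e-07). *PAPLN*, a proteoglycan-like matrix glycoprotein, fell from 7.14, 6.81 and 7.18 CPM to 1.29, 1.09 and 1.12 CPM (log2 -2.60, SE 0.134, adjusted p = 1.96e-07). All 3 were also low with AT-0174, at 7.26 to 8.28, 2.65 to 2.8 and 0.748 to 0.908 CPM in that order. By role, 5 of 10 collagens fell, as did 9 of 12 laminins and glycoproteins and 2 of 9 remodeling genes. The rises were *THBS1*, which encodes thrombospondin 1 (log2 0.23, adjusted p = 0.0115), and the membrane protease *MMP15* (log2 0.11, adjusted p = 0.039). Both of these were lost with counts rebuilt from TPM, and the count of falls was then 8. The summed level of the list changed little, from between 5663 and 5797 CPM to between 5290 and 5688 CPM, since *THBS1* alone made up 1640 to 1817 CPM attached and 1876 to 2168 CPM in suspension.

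Targets and factors of YAP and TAZ fell as well, 11 of 22 tested (50%) against 1 rise (4.55%), with a median of -0.17. *AMOTL2*, an angiomotin that holds YAP in the cytoplasm and is itself a YAP target, had 62.1, 66.6 and 61.5 CPM attached and 31.2, 35.8 and 27.2 CPM in suspension. Its level in suspension was 2.02-fold lower (log2 -1.01, SE 0.0767, adjusted p = 5.4e-06). *MYOF*, which encodes the membrane repair protein myoferlin, fell from 31.9, 32.8 and 34.8 CPM to 21.3, 19.7 and 18.5 CPM (log2 -0.74, SE 0.0551, adjusted p = 4.26e-06). *LATS2*, a kinase that phosphorylates YAP, fell by 0.69 (SE 0.0539, adjusted p = 6.62e-06). The groups did not overlap for any of these genes. *IGFBP3*, which binds insulin-like growth factors, rose (log2 0.41, adjusted p = 0.0107), a call lost without suspension replicate 2. Of the targets used most often to read YAP activity, chosen here after their values were seen, *CCN1* (log2 -0.17, adjusted p = 0.136) and *CCN2* (log2 -0.11, adjusted p = 0.779) did not pass the test. *CCN1* had a value of 0.02 with counts rebuilt from TPM, where 4 of the list fell. A larger share of its counts lay in retained-intron transcripts in suspension, as given below with the introns. Its summed level therefore mixes 2 kinds of transcript. Without retained-intron transcripts, 12 of the 22 genes fell and 1 rose, with a median of -0.23.

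Adhesion genes themselves were less affected. Among 26 integrins and focal adhesion genes, 6 fell (23.1%) and 2 rose (7.69%), with a median of -0.07. *FERMT2*, which encodes the integrin activator kindlin-2, had 52.5, 48.5 and 53 CPM attached and 28.4, 25 and 30.5 CPM in suspension (log2 -0.88, SE 0.0725, adjusted p = 1.13e-05). *TNS3*, a tensin that links integrins to actin, fell from 30.6, 32.9 and 32.5 CPM to 15.3, 19.7 and 14.5 CPM (log2 -0.95, SE 0.0893, adjusted p = 3.49e-05). Every suspension library was below every attached one for both. The scaffold *PXN*, encoding paxillin, fell by 0.26 (adjusted p = 0.00043). Of 10 integrins tested, 2 fell and 0 rose. *ITGA3*, a laminin-binding integrin chosen after its values were seen, fell by 0.17 (adjusted p = 0.00198), a call lost with counts rebuilt from TPM. The rises were the actin-linking *VCL*, encoding vinculin (log2 0.16, adjusted p = 0.00285), and *LPP* (log2 0.35, adjusted p = 0.00328). Both were lost with counts rebuilt from TPM, and *LPP* then had a value of -0.03. In that setting 3 of 25 genes of the list fell and 0 rose. *VCL* stood at 115 to 117 CPM with AT-0174, below its 129 to 133 CPM in attached cells.

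Actin genes moved in both directions, 10 of 36 tested higher (27.8%) and 3 lower (8.33%), with a median of 0.04. The largest fall of any gene named by rule was that of *BASP1*, a membrane protein that binds the cell cortex. It had 4.94, 6.75 and 5.48 CPM attached and 0.698, 0.521 and 0.683 CPM in suspension, or 9.01-fold less (log2 -3.17, SE 0.22, adjusted p = 2.65e-06). *TPM2*, a tropomyosin of stress fibers, fell from 3.24, 2.66 and 3.22 CPM to 1.29, 1.04 and 1.55 CPM (log2 -1.23, SE 0.221, adjusted p = 0.00283). In contrast, the abundant cytoplasmic actin *ACTG1* rose from 2006, 2068 and 1873 CPM to 2431, 2553 and 2399 CPM (log2 0.31, SE 0.0412, adjusted p = 0.000484). *PALLD*, which encodes the stress fiber protein palladin, rose from 22.5, 22.1 and 22.6 CPM to 28.2, 28.9 and 28.4 CPM (log2 0.35, SE 0.0487, adjusted p = 0.000699). With AT-0174, *PALLD* stood at 21.2, 23.1 and 20.6 CPM, close to the attached level. *FHL2*, a LIM protein chosen after its values were seen, showed the same order at low levels, with 0.412 to 0.627 CPM attached, 1.09 to 1.42 CPM in suspension and 0.385 to 0.478 CPM with AT-0174 (log2 1.22 for vehicle, adjusted p = 0.00524). The count of rises in the list was 6 without suspension replicate 2.

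Receptors of the semaphorin and VEGF families fell while their ligands were not called. Of 7 receptors tested, 4 fell, and of 6 ligands 0 moved past the threshold. *NRP1*, which encodes the coreceptor neuropilin 1, had 12.3, 11.5 and 10.4 CPM attached and 1.68, 1.2 and 1.59 CPM in suspension. The fall was 7.66-fold (log2 -2.94, SE 0.134, adjusted p = 6.9e-08), with 2.3, 1.91 and 2.02 CPM with AT-0174. The plexins *PLXNB1* (log2 -0.40, adjusted p = 0.00414) and *PLXNA3* (log2 -0.35, adjusted p = 0.0178) fell less, and the call of *PLXNA3* was lost without attached replicate 3 and without suspension replicate 1 or 2. The list had 2 falls without any 1 of these 3 libraries.

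Cell-cell junction genes and factors of epithelial-mesenchymal transition formed 1 list of 30 tested genes. Of these 9 rose (30%) and 3 fell (10%), with a median of 0.03. *CLDN7*, a tight junction claudin, rose from 108, 110 and 110 CPM to 132, 132 and 131 CPM (log2 0.27, SE 0.0298, adjusted p = 0.000138). *CLDN3* (log2 0.23, adjusted p = 0.00702) and the desmosomal cadherin *DSG2* (log2 0.18, adjusted p = 0.00607) also rose. Of 9 tight junction genes 4 rose and 0 fell. The 3 falls were P-cadherin *CDH3* (log2 -0.68, adjusted p = 0.000823), N-cadherin *CDH2* (log2 -0.34, adjusted p = 0.00131) and the desmosomal plakin *PPL* (log2 -0.29, adjusted p = 0.00213). Among 6 adherens junction genes 2 fell and 1 rose, and among 7 factors of epithelial-mesenchymal transition 1 rose and 0 fell. *EPCAM* did not pass the test (log2 0.06, adjusted p = 0.242). Without attached replicate 3 there were 5 rises, and with counts rebuilt from TPM 4 rises and 3 falls.

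Signals between neighboring cells changed in part. *JAG1*, a Notch ligand, fell from 49.1, 49.8 and 50.9 CPM to 32.2, 29.5 and 31.3 CPM (log2 -0.69, SE 0.0503, adjusted p = 3.73e-06), and the groups were well apart. *LFNG*, a glycosyltransferase that modifies Notch receptors, rose from 30.9, 30.1 and 28.5 CPM to 39.7, 45.8 and 43.5 CPM (log2 0.53, SE 0.0587, adjusted p = 0.000132). Over the Notch list, 3 of 14 genes fell (21.4%) and 1 rose (7.14%). In the BMP and TGF-β list, 6 of 22 rose (27.3%) and 5 fell (22.7%). The BMP-responsive inhibitor of DNA binding *ID2* rose from 362, 344 and 331 CPM to 439, 428 and 429 CPM (log2 0.32, SE 0.0407, adjusted p = 0.000369), as did *ID3* (log2 0.29, adjusted p = 0.00341). The ligand *TGFB2* fell from 1.36, 1.8 and 1.24 CPM to 0.646, 0.521 and 0.364 CPM (log2 -1.52, SE 0.281, adjusted p = 0.0033), but its call was lost with counts rebuilt from TPM. The receptor *TGFBR2*, chosen after its values were seen, fell by 0.86 (adjusted p = 0.00365), and that call too was lost with those counts.

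Messages of the mitochondrial genome fell together, all 13 of 13 tested, with log2 differences between -1.35 and -0.48 and a median of -1.06. Their summed level was 73349, 72469 and 90909 CPM in attached cells and 40199, 37537 and 36863 CPM in suspension. Each suspension library had a lower sum than any attached library, and attached replicate 3 was the highest. Their share of estimated counts was 7.26%, 7.15% and 8.84% attached and 4.05%, 3.82% and 3.77% in suspension (exact permutation test, two-sided, p = 0.1, the smallest that 3 against 3 libraries allow). All 13 were still lower without any 1 library, and the median was -0.93 without attached replicate 3. *MT-ND1*, a subunit of complex I, fell from 2988, 3116 and 3971 CPM to 1442, 1264 and 1260 CPM (log2 -1.35, SE 0.147, adjusted p = 0.000121). *MT-CYB* of complex III fell from 5861, 5679 and 6858 CPM to 3088, 2810 and 2849 CPM (log2 -1.07, SE 0.108, adjusted p = 6.38e-05). *MT-CO1* of complex IV was 2.01-fold lower and *MT-ATP6* of complex V 2.09-fold lower, whereas *MT-ND3* fell least, by 0.48. *MT-ND6*, the message of the other strand of the circular genome, fell by 1.18 (SE 0.153, adjusted p = 0.000441), within the range of the rest. The median fall was 1.18 in 7 complex I genes, 0.88 in 3 complex IV genes and 0.93 in 2 complex V genes.

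The mitochondrial ribosomal RNAs, chosen after their values were seen, fell less than most of the messages, with -0.45 for *MT-RNR1* (adjusted p = 0.00197) and -0.68 for *MT-RNR2* (adjusted p = 0.000744). *TFAM*, which packages the mitochondrial genome and starts its transcription, was also chosen after its values were seen and had a log2 difference of 0.15 (adjusted p = 0.0159), lost without attached replicate 3. The sum of the 13 messages with AT-0174 was 34443, 51671 and 44072 CPM, below each attached library but more spread than with vehicle alone. Copies of mitochondrial sequence in the nuclear genome can share reads with these genes, and such reads were assigned by estimate.

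Nuclear genes of the same complexes went the other way. Of 76 respiratory chain subunits tested, 36 rose (47.4%) and 0 fell, with a median of 0.11 and a range from -0.11 to 0.22. Rises were seen in 12 of 37 genes of complex I, 3 of 4 of complex II, 6 of 10 of complex III, 7 of 10 of complex IV and 8 of 15 of complex V. *NDUFB4*, of complex I, rose from 93.1, 93.3 and 87.4 CPM to 105, 105 and 103 CPM (log2 0.20, SE 0.0364, adjusted p = 0.00346). *ATP5F1B*, the catalytic subunit of ATP synthase, rose from 598, 602 and 577 CPM to 660, 689 and 674 CPM (log2 0.19, SE 0.0305, adjusted p = 0.00167). Attached replicate 3 was lowest for both, and the groups did not overlap. The summed level of the list was 7332 to 7548 CPM attached and 7997 to 8081 CPM in suspension. The count depended on single libraries, at 15 without attached replicate 3, 20 without suspension replicate 2 and 21 without suspension replicate 3, but no fall appeared in any of these and the median stayed between 0.10 and 0.12.

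Cytosolic ribosomal proteins rose in 62 of 76 genes (81.6%), and 0 fell, with a median of 0.16. Of the large subunit 39 of 45 rose and of the small subunit 23 of 31. *RPS28* rose from 181, 187 and 182 CPM to 211, 236 and 236 CPM (log2 0.31, SE 0.0476, adjusted p = 0.00113), a call lost with counts rebuilt from TPM. *RPS12* rose from 328, 338 and 331 CPM to 370, 402 and 400 CPM (log2 0.23, SE 0.0373, adjusted p = 0.00144). For both genes every suspension library lay above every attached one, and suspension replicate 1 was the lowest of its group. The sum over the list was 33721 to 35707 CPM attached and 38176 to 39009 CPM in suspension. Between 50 and 63 genes rose when 1 library was left out, and 47 with counts rebuilt from TPM. Many of these genes have processed pseudogenes, so their reads were partly assigned by estimate. Ribosome biogenesis genes rose in 20 of 48 (41.7%), 0 falling, with a median of 0.10. They were led by the rRNA processing factor *WDR43* (log2 0.26, adjusted p = 0.00171) and the polymerase subunit *POLR1C* (log2 0.22, adjusted p = 0.0036). That count was 8 without attached replicate 3 and 8 without suspension replicate 2, 9 without attached replicate 1 and 11 without suspension replicate 1. It was 3 with counts rebuilt from TPM, where the calls of *WDR43* and *POLR1C* were lost. Rises over all genes dropped in these settings too. They numbered 1620 in the main fit, 925 without attached replicate 3, 922 without suspension replicate 2 and 671 with counts rebuilt from TPM.

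**Figure D3:**
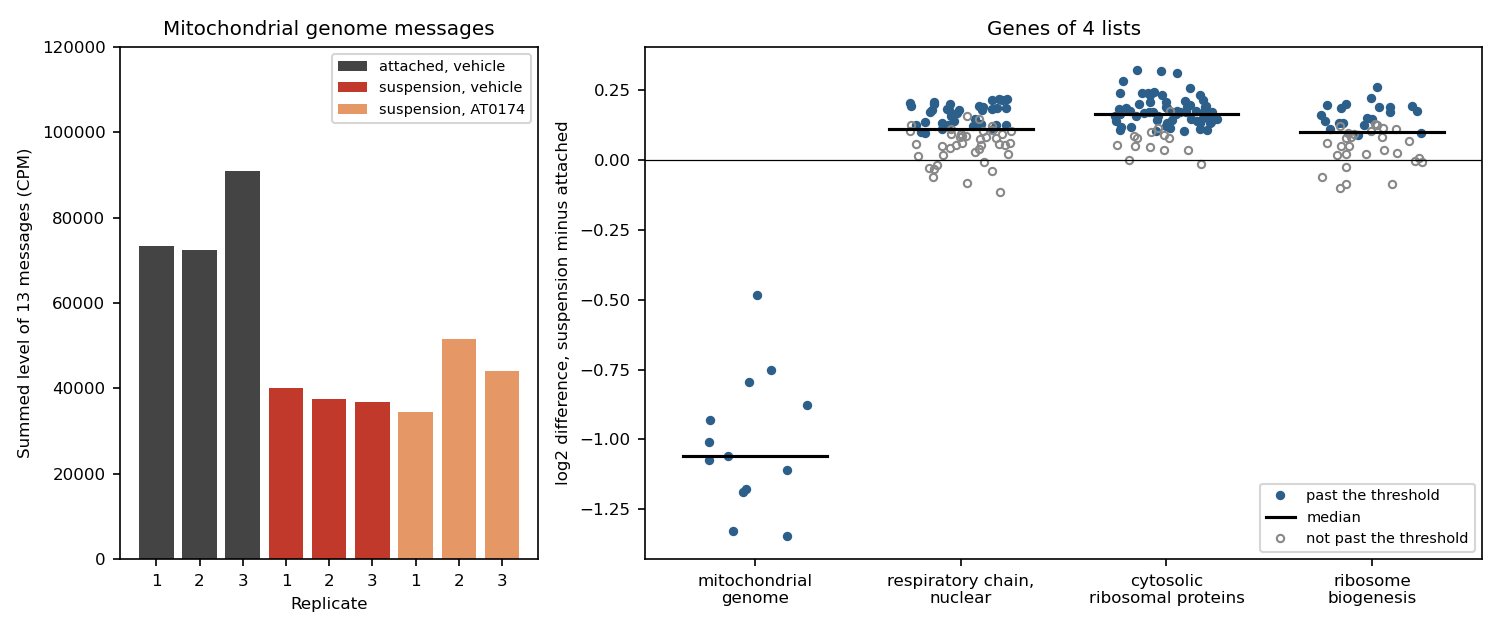
The left panel shows the summed level of 13 mitochondrial genome messages in CPM per library, and the right panel the log2 difference of each gene in 4 lists, with points marked where the gene passed the test. All 13 mitochondrial messages lie below 0, between -1.35 and -0.48, while the genes of the nuclear respiratory chain, ribosomal protein and ribosome biogenesis lists lie within 0.32 of 0, mostly above it.

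Genes of glucose use rose more often than they fell. Of 23 tested, 10 rose (43.5%) and 2 fell (8.7%), with a median of 0.10. There were 6 rises with counts rebuilt from TPM, and 0 or 1 falls on leaving out any single library. The glucose transporter *SLC2A1* went from 90.9, 91.3 and 89 CPM to 115, 120 and 117 CPM (log2 0.37, SE 0.0375, adjusted p = 6.21e-05). *HK2*, encoding the hexokinase that traps glucose in the cell, rose from 208, 214 and 209 CPM to 262, 259 and 243 CPM (log2 0.28, SE 0.034, adjusted p = 0.000296). The groups were fully apart in both. The lactate transporter *SLC16A1*, chosen after its values were seen, rose by 0.30 (adjusted p = 0.00471). Of hypoxia-induced genes, 8 of 28 rose (28.6%, against 10.4% of all genes) and 0 fell, with a median of 0.06. *NDRG1*, a stress-responsive gene, rose from 4.26, 3.49 and 3.76 CPM to 6.64, 6.19 and 10 CPM (log2 0.99, SE 0.209, adjusted p = 0.00631), a call lost with counts rebuilt from TPM. *EGLN3*, an oxygen sensor that is itself induced by low oxygen, rose by 0.25 (adjusted p = 0.00209) and the mitophagy receptor *BNIP3* by 0.23 (adjusted p = 0.00501). Of 7 regulators 2 rose, and of 21 targets 6. There were 5 rises without attached replicate 2 or without suspension replicate 3, and 4 of 27 with counts rebuilt from TPM.

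Targets of ATF4, the factor that answers amino acid shortage, rose in 8 of 24 genes (33.3%) and fell in 0, with a median of 0.08. Of the 5 regulators of the list, 0 moved past the threshold. *GDF15*, a secreted stress cytokine, had 14.4, 15.1 and 15.9 CPM attached and 26.5, 24.2 and 25.4 CPM in suspension (log2 0.75, SE 0.0539, adjusted p = 3.51e-06). *SLC7A11*, the cystine importer, rose from 24.3, 23.8 and 23.2 CPM to 35, 34.9 and 35.3 CPM (log2 0.56, SE 0.0406, adjusted p = 3.51e-06). Replicates of both genes lay close together and the groups far apart. With AT-0174, against the same attached libraries, *GDF15* stood at 40.2, 40.6 and 38.1 CPM and *SLC7A11* at 56.9, 54.7 and 53.9 CPM. Of 19 amino acid transporters, 7 rose (36.8%) and 3 fell (15.8%). The cationic transporter *SLC7A1* rose by 0.23 (adjusted p = 0.000861) and the glutamate transporter *SLC1A3* fell by 0.46 (adjusted p = 0.00189), the latter call being lost with counts rebuilt from TPM. Among 11 tested enzymes of tryptophan use, 2 rose (18.2%) and 1 fell (9.09%). *TDO2*, which opens the tryptophan ring, had 118, 114 and 112 CPM attached, 176, 168 and 157 CPM in suspension and 201, 191 and 196 CPM with AT-0174. *QPRT*, which turns the kynurenine product quinolinate toward NAD, fell by 0.19 (adjusted p = 0.0228), a call lost without attached replicate 1 or 3 and with counts rebuilt from TPM.

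Called genes of lipid and secretory function lay between -0.27 and 0.37 on the log2 scale. *INSIG1*, which restrains sterol synthesis, rose from 180, 175 and 168 CPM to 193, 194 and 214 CPM (log2 0.20, SE 0.0433, adjusted p = 0.0072). *LSS*, which closes the sterol ring system, fell by 0.27 (adjusted p = 0.00129). Over 24 cholesterol genes, 5 rose (20.8%) and 3 fell (12.5%). Over 14 fatty acid genes, 4 rose (28.6%) and 4 fell (28.6%). *ELOVL5*, an elongase of unsaturated fatty acids, fell by 0.25 (adjusted p = 0.00356). *XBP1*, a factor of the unfolded protein response and of luminal cells, rose from 1336, 1271 and 1271 CPM to 1667, 1673 and 1676 CPM (log2 0.37, SE 0.0337, adjusted p = 2.64e-05), with the groups far apart. Of 23 genes of that response, 5 rose (21.7%) and 1 fell (4.35%). Without attached replicate 3 there were 3 rises in the cholesterol list and 3 in the unfolded protein response list, and without suspension replicate 1 there was 1 fall in the fatty acid list.

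Splicing regulators fell more often than genes in general, 15 of 39 (38.5%) against 1 rise (2.56%), with a median of -0.10. *HNRNPDL*, an RNA-binding protein, fell from 377, 386 and 389 CPM to 334, 311 and 318 CPM (log2 -0.26, SE 0.0379, adjusted p = 0.000871). *CLK1*, a kinase of splicing factors, fell from 45.5, 43.4 and 46.9 CPM to 33.6, 34.4 and 35 CPM (log2 -0.40, SE 0.0592, adjusted p = 0.000968). Genes of this kind commonly make transcripts that keep an intron. When retained-intron transcripts were left out of the gene sums, 12 of the list fell, the median was -0.04 and *CLK1* was not called (log2 -0.15, adjusted p = 0.0537). *U2AF1* rose by 0.49 (adjusted p = 0.0395), but it has a near-identical copy, *U2AF1L5*, its groups overlapped, and its call was lost without attached replicate 1 or 3 and without suspension replicate 2 or 3.

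Transcripts annotated as retaining an intron took 4.87%, 4.88% and 5.5% of estimated counts in attached cells and 4.33%, 4.33% and 4.35% in suspension (exact permutation test, two-sided, p = 0.1). The lowest attached library was above the highest suspension library, and attached replicate 3 was the highest. With AT-0174 the share was 4.07%, 4.78% and 4.45%. For 4034 genes that make both kinds of transcript, the log ratio of retained-intron to other counts was tested with limma. It was below 0 in 78.5% of them, with a median of -0.36. At an adjusted p under 0.05, the retained-intron share was lower in 153 genes (3.79%) and higher in 4 (0.0992%), and 1144 genes had an unadjusted p under 0.05. These calls did not withstand the loss of a library. Leaving out any 1 of the 6 left 0 to 3 genes called, with 763 to 1116 genes at an unadjusted p under 0.05.

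The named genes of this test were chosen after their values were seen. *SRSF5*, a splicing factor, had 28.5%, 29% and 31.8% of its estimated counts in retained-intron transcripts attached and 16.1%, 15.3% and 18.8% in suspension (log2 ratio -1.08, SE 0.185, adjusted p = 0.0361). Summed over all its transcripts, *SRSF5* had a log2 difference of -0.13, and of 0.10 without the retained-intron ones, neither past the threshold. *HDAC1*, a histone deacetylase, went from 16.1%, 15.5% and 17.6% to 7.61%, 8.64% and 7.93% (log2 ratio -1.15, SE 0.165, adjusted p = 0.0361). Both genes kept less of their output in such transcripts in every suspension library. The rises ran the other way in 2 immediate-early genes. In *CCN1*, which encodes a matricellular protein, the share went from 8.06%, 5.44% and 7.15% to 24.7%, 28.4% and 19.1% (log2 ratio 2.08, SE 0.279, adjusted p = 0.0361). In *NR4A1*, an orphan nuclear receptor, it went from 7.56%, 7.46% and 12.2% to 36%, 39.4% and 20.9% (log2 ratio 2.18, SE 0.434, adjusted p = 0.0361). *CCN1* was called in 4 of 9 alternatives and *NR4A1*, *SRSF5* and *HDAC1* in 3. The groups did not overlap in any of these genes, and with AT-0174 the shares were 18.6% to 28.6% for *CCN1* and 14.5% to 32.8% for *NR4A1*.

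**Figure D4:**
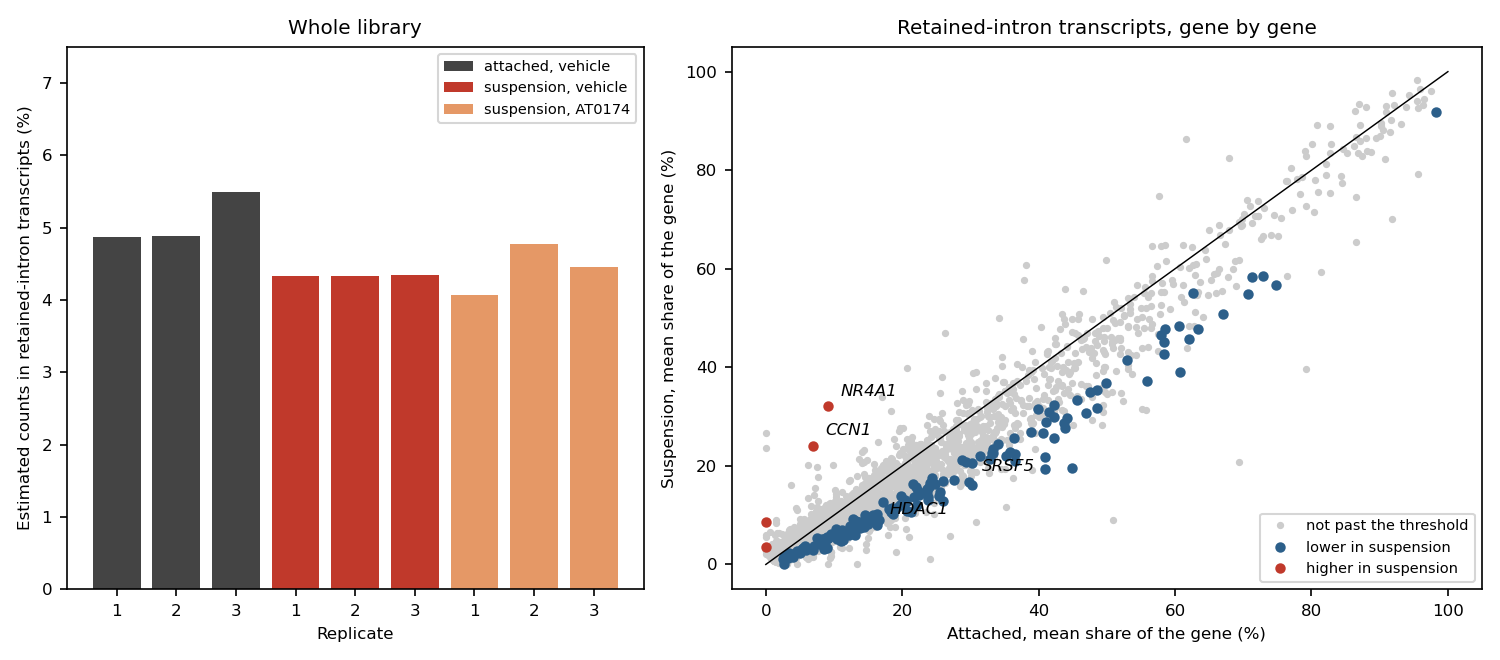
The left panel shows the percentage of estimated counts in retained-intron transcripts for each library, and the right panel the mean share of each of 4034 genes in attached cells against suspension, with the called genes marked. Bars of suspension with vehicle stand at 4.33% to 4.35%, below 4.87% to 5.5% in attached cells, and most points of the right panel lie below the diagonal.

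Directions differed among the noncoding classes. Of 1874 long noncoding RNAs tested, 101 fell and 21 rose (5.39% and 1.12%, against 10.8% and 10.4% of all genes), with a median of -0.08. Their summed share differed by 0.0382 percentage points of TPM and by -0.0581 points of estimated counts. The groups overlapped in both units (exact permutation test, two-sided, p = 0.2 in each). Of 250 transcribed unprocessed pseudogenes 42 fell and 1 rose, whereas of 376 processed pseudogenes 9 fell and 6 rose, with a median of 0.04. Among 12632 protein-coding genes, 1488 fell and 1581 rose. *MALAT1*, an abundant nuclear RNA chosen after its values were seen, had 504, 443 and 924 CPM attached and 266, 343 and 283 CPM in suspension (log2 -1.07, SE 0.249, adjusted p = 0.0105). Attached replicate 3 was again the highest. Without it *MALAT1* had a log2 difference of -0.67 (adjusted p = 0.0361), and the call was lost with counts rebuilt from TPM. *NEAT1*, the RNA scaffold of paraspeckles, was chosen in the same way and did not pass the test (log2 -0.65, adjusted p = 0.0565). Mitochondrial messages, retained introns and *MALAT1* were thus all highest in the same attached library, and why they moved together there was not tested. Genes that fell had longer transcripts, with a median of 2351 bases against 2054 for all genes tested and 2045 for those that rose. Among protein-coding genes the medians were 2402 bases for falls, 2213 for all tested and 2056 for rises. The mean of transcript length minus effective length, which reflects the fragment length, was 164.3 to 166.9 bases attached and 160.3 to 164.2 bases in suspension.

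Few genes were called for a change in the use of single transcripts. A limma test of the log ratio of each transcript to the others of its gene called 11 of 9550 genes (0.115%), while 1303 had an unadjusted p under 0.05. On simulated data this test missed most of the shifts put in, so the low count of calls does not show that few genes shifted. In 7 of the 11 genes, the transcript that moved was listed at 0 in a whole group, which makes its estimate unstable. *BCAR3*, an adaptor that binds the focal adhesion protein BCAR1, was not among them and was chosen with its values known. *BCAR3-201* spans chr1:93561741-93681837 on the minus strand of GRCh38 and made up 42.1%, 45.5% and 47.7% of the gene's TPM attached and 29%, 26.4% and 26.8% in suspension (log2 ratio -1.12, SE 0.119, adjusted p of the gene = 0.0302). *BCAR3-204* (chr1:93561786-93614097), whose annotated start lies downstream, rose in turn from 51.3%, 48.7% and 46.7% to 62.9%, 60.4% and 63.7%. *RBM12B*, which encodes an RNA-binding motif protein, shifted between its transcripts *RBM12B-205*, from 25.4%, 30% and 26.9% to 52.6%, 44.7% and 55.2%, and *RBM12B-201*, from 68.3%, 55.2% and 60.3% to 39.3%, 43% and 42.3%. The groups were apart for the named transcripts of both genes, and with AT-0174 *BCAR3-201* stood at 30.7%, 26.4% and 32%. In *MLEC*, which encodes a sugar-binding protein of the endoplasmic reticulum, *MLEC-201* rose from 49.9%, 50.6% and 48.6% to 56.2%, 61.2% and 63.2% (log2 ratio 0.62, SE 0.0796, adjusted p of the gene = 0.0404). In *CKB*, the brain-type creatine kinase, *CKB-201* rose from 76.5%, 76.3% and 76% to 79.6%, 81.8% and 82% (log2 ratio 0.44, SE 0.0517, adjusted p of the gene = 0.0302). *BCAR3* and *CKB* were called in 3 of 9 alternatives and *MLEC* and *RBM12B* in 2, with adjusted p-values up to 0.171 and 0.181. The test does not include the error of assigning reads to transcripts, since the files hold no repeat draws.

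**Figure D5:**
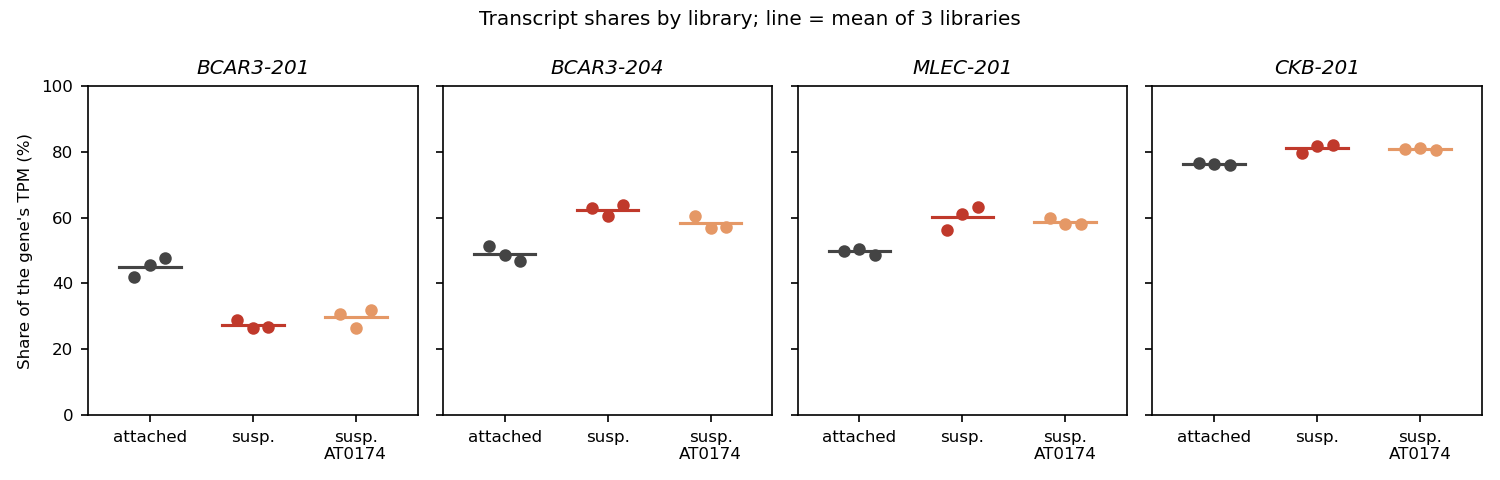
Share of the gene's TPM in percent for 4 transcripts, with 1 point per library and a line at the mean of 3, on an axis from 0 to 100. *BCAR3-201* was at 42.1% to 47.7% attached and 26.4% to 29% in suspension, and *BCAR3-204*, *MLEC-201* and *CKB-201* were higher in suspension.

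Interferon-induced genes tended lower, 6 of 31 falling (19.4%) and 1 rising (3.23%), with a median of -0.24. By role, 4 of 5 factors fell, whereas of 26 effectors 2 fell and 1 rose, beside 10.8% of all genes falling. The median over the effectors was -0.22. *IRF9*, the DNA-binding subunit of the interferon-activated complex ISGF3, had 15.3, 27.1 and 19.2 CPM attached and 9.61, 11.4 and 9.79 CPM in suspension (log2 -0.99, SE 0.192, adjusted p = 0.00412). With AT-0174 it had 4.16, 7.05 and 6.14 CPM. Its partner *STAT2* fell from 52.4, 53.5 and 58.2 CPM to 44.1, 48.5 and 46.3 CPM (log2 -0.24, SE 0.0509, adjusted p = 0.00648), a call lost without retained-intron transcripts. *IFIT1*, an antiviral effector chosen after its values were seen, showed that attached replicate 2 stood apart, with 9.18, 21.7 and 8.42 CPM attached and 7.18, 7.32 and 3.87 CPM in suspension (log2 -1.09, adjusted p = 0.0318). Without that library its call was lost, the list had 2 falls, and it had 2 without suspension replicate 3 and 3 without suspension replicate 1. Without attached replicate 3 it had 8 falls and a median of -0.39.

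Survival genes of the BCL2 family fell slightly, 3 of 4 tested, and 2 of 7 BH3-only genes rose. Over the 14 tested genes of the family, 2 rose (14.3%) and 3 fell (21.4%). *MCL1* fell from 259, 263 and 255 CPM to 223, 235 and 241 CPM (log2 -0.15, SE 0.0333, adjusted p = 0.00719), and this call was lost without TMM scaling. *BCL2L1*, encoding BCL-XL, fell by 0.14 (adjusted p = 0.0176) and *BCL2L2* by 0.26 (adjusted p = 0.0289), and both were lost without attached replicate 2 and in other settings. *BCL2L11*, which encodes the proapoptotic protein BIM, rose from 28.2, 26.9 and 30.6 CPM to 33.7, 34.2 and 34.9 CPM (log2 0.26, SE 0.055, adjusted p = 0.0061), a call lost with counts rebuilt from TPM. The other BH3-only gene was *BNIP3*, given above. With AT-0174 *BCL2L11* stood at 28.8 to 31.8 CPM. Of 20 death receptor and NF-κB genes, 3 fell (15%) and 1 rose (5%). There was 1 fall without attached replicate 3 or without suspension replicate 1 or 3, and 0 rises on leaving out any single library other than suspension replicate 3. *NFKB2*, the precursor subunit of noncanonical NF-κB, fell from 38.1, 35.8 and 37 CPM to 29, 29 and 31.2 CPM (log2 -0.31, SE 0.044, adjusted p = 0.00073).

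Luminal genes were called more often than genes in general, 7 of 20 rising (35%) and 3 falling (15%). Their median log2 difference was 0.06. *FOXA1*, a pioneer factor of luminal cells, rose from 594, 596 and 577 CPM to 703, 699 and 713 CPM (log2 0.26, SE 0.0281, adjusted p = 0.000114). Against this direction, *TMPRSS2*, a membrane serine protease, fell from 24.8, 22.7 and 26.8 CPM to 17.9, 17.9 and 20.5 CPM (log2 -0.40, SE 0.0795, adjusted p = 0.00473). *ERBB2* (log2 0.01, adjusted p = 0.773), *KRT8* (log2 -0.01, adjusted p = 0.898) and *KRT18* (log2 0.07, adjusted p = 0.114) did not pass the test. Of 22 receptor tyrosine kinases and ligands, 6 rose (27.3%) and 5 fell (22.7%). *PTHLH*, which encodes parathyroid hormone-related protein, rose from 4.05, 3.32 and 3.32 CPM to 7.65, 8.84 and 5.71 CPM (log2 1.05, SE 0.151, adjusted p = 0.000776), with 13, 10.8 and 11.7 CPM with AT-0174. It was counted among the rises of this list, although its protein is not a ligand of a receptor tyrosine kinase. *FGFR2*, a fibroblast growth factor receptor, fell from 4.65, 4.98 and 4.09 CPM to 2.53, 2.15 and 2.28 CPM (log2 -0.98, SE 0.143, adjusted p = 0.000852), a call lost with counts rebuilt from TPM. The binding protein *IGFBP2* fell by 0.36 (adjusted p = 0.000128) and *IGFBP4* rose by 0.31 (adjusted p = 0.00192). The list had 3 rises without suspension replicate 2.

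Oxidant defense genes split. Of 30 NRF2 targets and regulators, 9 rose (30%) and 4 fell (13.3%). There were 3 to 5 rises without attached replicate 2 or 3 or without suspension replicate 2 or 3. *ABCC3*, an exporter of conjugated organic anions, fell from 93.9, 96.4 and 103 CPM to 53, 51.5 and 54.6 CPM (log2 -0.88, SE 0.044, adjusted p = 1.45e-07). *HMOX1*, the heme-degrading enzyme, fell from 52.4, 45.6 and 46.4 CPM to 35.9, 37 and 38.5 CPM (log2 -0.37, SE 0.0631, adjusted p = 0.002). With AT-0174 both were higher than with vehicle in every library, at 79.6 to 85.4 CPM and 68.3 to 78.3 CPM. Among 20 heat shock genes 3 rose (15%) and 4 fell (20%). The small heat shock protein *HSPB1* rose from 67.8, 68.8 and 66.5 CPM to 90.1, 89.8 and 92.2 CPM (log2 0.42, SE 0.0324, adjusted p = 6.02e-06). *HSPA1A* and *HSPA1B*, which fell by 0.15 and 0.20, are near-identical copies that share reads.

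Cell cycle genes rose in 11 of 57 (19.3%) and fell in 1 (1.75%), with a median of 0.04. *CDKN1A*, which encodes the cyclin-dependent kinase inhibitor p21, rose from 59.3, 61.8 and 57.4 CPM to 74.8, 76 and 79 CPM (log2 0.36, SE 0.0386, adjusted p = 9.37e-05). *CCNB1*, the mitotic cyclin, rose by 0.22 (adjusted p = 0.00429). *CDKN2C*, another kinase inhibitor, fell by 0.30 (adjusted p = 0.0029). Rises were seen in 5 of 16 regulators of G1 and S phase, 2 of 19 replication genes and 4 of 22 mitotic genes, and 5 in all without suspension replicate 2. Of 31 autophagy and lysosome genes, 6 rose (19.4%) and 2 fell (6.45%), and between 2 and 4 rose with any 1 library left out. Of 5 metallothionein genes and regulators tested 1 rose, the zinc exporter *SLC30A1* (log2 0.26, adjusted p = 0.00184). Of 18 clock genes 1 rose and 1 fell (5.56% each). The fall was that of the repressor *BHLHE41* (log2 -0.62, adjusted p = 0.0102), a call lost without retained-intron transcripts. Of 27 replication-dependent histones 1 rose (3.7%), and of 26 clustered protocadherins 0 moved past the threshold by edgeR's test.

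Of the 20 genes with the largest changes among called genes whose groups did not overlap and whose mean was 50 or more normalized counts, most have been named in their groups. The remaining rises were *LINC02747* (log2 0.90, adjusted p = 0.000664), the LIM protein *CRIP1* (log2 0.85, adjusted p = 0.0153, lost without attached replicate 3 and without suspension replicate 1 or 2), *ENSG00000280347* (log2 0.95, adjusted p = 0.00923) and *ENSG00000288534* (log2 0.85, adjusted p = 0.000733). The remaining falls included *CRIM1*, a cell surface regulator of BMP ligands and member of the YAP list, from 2.77, 3.32 and 3.6 CPM to 0.982, 0.544 and 0.683 CPM (log2 -2.14, SE 0.269, adjusted p = 0.000348). *FRMD3*, a FERM domain protein, fell by 1.77 (adjusted p = 0.00161), *ENSG00000288473* by 1.65 (adjusted p = 0.00222) and *LINC02015* by 1.62 (adjusted p = 0.000733). *CRIM1*, *FRMD3*, *ENSG00000280347* and *ENSG00000288473* were not called with counts rebuilt from TPM. *BOLA2* (log2 -2.55, adjusted p = 0.00902) is uncertain, since it shares reads with its copy *BOLA2B* and had 4.16, 6.54 and 0.929 CPM with AT-0174.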

How the data were processed

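RNA of MDA-MB-453 cells was sequenced by the authors, who trimmed adapters with cutadapt 3.4 in Trim Galore 0.6.7, aligned reads with STAR 2.7.9a to GRCh38 with Ensembl release 104 and quantified them with Salmon 1.10.1. The gene table deposited by the authors holds estimated counts summed by gene, with no normalization, and the transcript files hold estimated counts and TPM, both as deposited. Whether reads were counted by strand is not given in the sources used here. Gene and transcript types came from GENCODE release 44 on GRCh38, in which 99.0% of transcripts were found by identifier. Promoters came from RefSeq on GRCh38.p14.

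Estimated counts were rounded to whole numbers, filtered with filterByExpr and scaled by TMM, and all 9 libraries entered a quasi-likelihood fit of edgeR 4.0.16 (R 4.3.3) with the group as the only term. Benjamini-Hochberg adjusted p-values under 0.05 were called. The study names limma without the libraries that entered its fit. The libraries differed beyond sampling noise, and none was merged. Of 3 against 3 libraries, an exact permutation test cannot go below 0.10. Where nothing says that replicates were separate cultures beyond the design text, p-values measure only the spread between these libraries.

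Transcript use was to be tested with diffSpliceDGE of edgeR, but most of its calls on simulated data were false, so limma 3.58.1 was applied to log2 ratios of each transcript, or of all retained-intron transcripts, to the rest of the gene. A prior of 2 counts was added. Genes needed 50 counts on average and a mean share between 5% and 95% for single transcripts, or between 1% and 99% for retained introns. The gene test and the log-ratio tests were tested on simulated data as well. The gene test recovered 38% of changes of 1.2-fold, 74.5% of 1.5-fold and 81.5% of 2-fold. Of its calls, 8.4%, 3.2% and 7.4% were false in that order. A gene that was not called may therefore still have changed by a small amount. Levels are CPM of TMM-scaled library sizes.

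The 37 lists and the comparison were chosen with earlier results of these data known, and lists are described by counts and medians only. Genes were named by rule: the 10 largest rises and 10 largest falls among called genes whose groups do not overlap and whose mean is 50 or more normalized counts, up to 3 called genes per direction and list with the smallest p, members of lists of 12 genes or fewer, and genes that check the line. Other genes are said to be chosen after their values were seen. Alternatives were DESeq2 1.42.0 and its size factors, limma-voom, other filters, the 6 vehicle libraries alone, a replicate block, thinning, counts rebuilt from TPM, and each vehicle library left out. Added after the data were seen were length-scaled counts, library totals without TMM, and counts without retained-intron or mitochondrial genome transcripts. Some genes are not reported here.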

Additional observations from a re-analysis of the deposited data

How the results depend on the processing

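The 3297 genes changed became 1401 with counts rebuilt from TPM and 1714 with length-scaled counts, and 1935 to 2693 with 1 library left out, lowest without attached replicate 3 (1935) and suspension replicate 2 (1951). Every other alternative gave a count within 1.5 times the main one, among them 3199 with DESeq2 and 3251 with limma-voom. Among 189 named genes tested, 177 were called, 103 of them in every alternative and 74 lost in at least 1. The same replicate numbers did not mark shared deviations (correlations -0.043, -0.056 and 0.036 across genes for numbers 1, 2 and 3), and 3250 genes changed with the replicate block.

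The planned transcript-share test called 241 genes, 693 with limma-voom, 135 with at least 10 counts in every library, 149 with the 6 vehicle libraries, 98 with the replicate block and 155 to 285 with 1 library left out, 155 without suspension replicate 2 and 159 without suspension replicate 3. The log-ratio test called 11 genes, 3 with the replicate block, 17 with a prior of 0.5 counts and 6 to 33 with 1 library left out. Retained-intron shares differed in 157 genes, in 385 with the 6 vehicle libraries, and in 0 to 3 with 1 library left out, so these calls rest on all 6 libraries. The cause of these shifts was not tested.

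Some small differences turned. The share of counts in nonsense-mediated decay transcripts, 0.0267 percentage points higher, was between -0.0204, without suspension replicate 1, and 0.0551, without suspension replicate 2, and 0.214 as a share of TPM. As a share of TPM, long noncoding RNAs (-0.0581 points of counts) stood at 0.0382 and protein-coding gene transcripts without a coding sequence (-0.068) at 0.0934. With counts rebuilt from TPM and with length-scaled counts, in that order, *LPP* was at -0.03 and -0.02, *CFLAR* at 0.09 and 0.09, *CCN1* at 0.02 and 0.02, *MTF1* at -0.02 and -0.02, and *ERBB2* at -0.02 and -0.02, none past the threshold. *ERBB2* was at -0.0014 without attached replicate 1. Without retained-intron transcripts *MTF1* was at -0.00011, *SRSF5* at 0.10 and *KRT8* at 0.01. *KRT8* was at 0.04 without TMM and between -0.01 and 0.0032 with 1 library left out, above 0 without attached replicate 2 (0.0012) or suspension replicate 2. Low counts limit *TGFB2*, *CRIM1* and *FHL2*, and the depth of single transcripts is not known beyond Salmon's estimates.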
